A study of Mus musculus with 12 samples.

Results

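The genes described here are 10 markers of intraepithelial and cytotoxic lymphocytes: Cd8a, Cd8b1, Gzma, Gzmb, Prf1, Nkg7, Itgae, Klrd1, Ncr1 and Trdc. They were taken by symbol, and 10 of the 54532 genes in each count file answered to these names. RNA of mouse colon was sequenced in 4 groups of 3 libraries, from male C57BL/6 mice that arrived at 6 weeks of age. The Con group was untreated according to the sample labels and received the vehicle by gavage according to the study's methods. The DSS group drank 3% (w/v) dextran sulfate sodium for 5 days, a polymer that injures the colon epithelium, and received the vehicle. The UA+DSS group drank the same DSS and received ursolic acid (UA), a pentacyclic triterpenoid of plants, by gavage at 200 mg/kg for 7 days from 1 day before DSS. The DSS+UA group drank the same DSS and received UA at 200 mg/kg for 4 days from 3 days after the start of DSS. The study had 8 mice per group, and its methods speak of 3 colonic tissues per group for RNA. Libraries are called by group and number, so that DSS 2 is replicate 2 of DSS.

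Intraepithelial lymphocytes are T cells that sit between the epithelial cells of the gut, and many of them express CD8 and kill infected or stressed cells. CD8 occurs as an alpha-beta heterodimer, found on conventional cytotoxic T cells, and as an alpha-alpha homodimer, found on many intraepithelial lymphocytes and on some dendritic cells. Cytotoxic T cells and natural killer (NK) cells kill by releasing perforin and granzymes from granules.

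All 10 genes passed the filter on low counts, but they are not abundant in whole colon. Their counts ranged from 1 for Ncr1 in UA+DSS 3 to 1510 for Gzma in UA+DSS 1, in libraries with total counts from 15566216 to 19498383 (median 18569669.5). The unit of all levels is CPM, the count relative to the library's total after TMM scaling (factors of 0.871 to 1.09). Per kb of exon, Gzma stood highest with a mean level of 19.8 CPM per kb over the 12 libraries, followed by Gzmb with 13.6, Nkg7 with 4.58, Klrd1 with 2.48, Cd8b1 with 2.36, Cd8a with 2.25, Itgae with 1.65, Trdc with 0.549, Prf1 with 0.426 and Ncr1 with 0.251. The ranges over the libraries overlapped between every gene and its neighbours in this order. Con 1 held the lowest level of 5 of the 10 genes and UA+DSS 1 the highest level of 4. In whole tissue, fewer cells of a type and less RNA per cell cannot be told apart.

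Libraries differed beyond their group labels. The summed level of 8 genes of the exocrine pancreas was 16136 CPM in DSS 3 and 31.6 to 555 CPM elsewhere. The summed level of 8 neutrophil genes was 18437 CPM in DSS 2, against 916 and 1005 CPM in the other DSS libraries. A score of position along the colon, from Hox genes of the distal minus those of the proximal colon on the log2 scale, was 5.52, -3.02 and -1.83 in Con and 0.366 to 3.10 in DSS. It was -5.70 to -4.16 in UA+DSS and 4.12 to 5.06 in DSS+UA. The scores of UA+DSS did not overlap with those of any other group, nor those of DSS+UA with those of DSS, so that in these 4 comparisons group and position cannot be told apart. With the score as a covariate in edgeR, the called genes among all 17658 went from 3300 to 3 in UA+DSS against DSS and from 1331 to 199 in DSS+UA against DSS. They went from 2961 to 0 in UA+DSS against DSS+UA and from 1 to 0 in UA+DSS against Con. In DSS+UA against Con they went from 3193 to 2170, and in DSS against Con they rose from 4688 to 5382.

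Gzma and Gzmb had the widest range of the 10 genes over the libraries, with 208-fold and 113-fold between the highest and the lowest level, against 7.03-fold to 20.9-fold for the others. For these and for Prf1, which was called in DSS against Con, the promoter stretch from 250 to 11 bases before the RefSeq start site is shown, from the RefSeq table on GRCm38.p6, read 5′ to 3′ on the strand of the gene. Capitals mark a RUNX core (TGTGGT, or ACCACA on the other strand), a T-box core (AGGTGT, or ACACCT on the other strand) and an AP-1 site (TGANTCA, which reads the same on both strands). The 3 stretches lie at chr13:113100992-113101231 on the minus strand (Gzma), chr14:56262345-56262584 on the minus strand (Gzmb) and chr10:61297586-61297825 on the plus strand (Prf1), and the GENCODE vM21 annotation places no exon in them.
Gzma: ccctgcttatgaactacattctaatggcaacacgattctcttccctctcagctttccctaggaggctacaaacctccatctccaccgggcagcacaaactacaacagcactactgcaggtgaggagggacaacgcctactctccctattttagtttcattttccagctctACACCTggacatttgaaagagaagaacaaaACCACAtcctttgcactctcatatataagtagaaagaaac
Gzmb: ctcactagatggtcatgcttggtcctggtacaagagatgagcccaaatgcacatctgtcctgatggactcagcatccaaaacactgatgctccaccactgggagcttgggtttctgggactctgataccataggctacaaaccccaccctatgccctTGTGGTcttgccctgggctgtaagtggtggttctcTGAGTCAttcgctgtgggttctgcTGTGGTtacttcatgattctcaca
Prf1: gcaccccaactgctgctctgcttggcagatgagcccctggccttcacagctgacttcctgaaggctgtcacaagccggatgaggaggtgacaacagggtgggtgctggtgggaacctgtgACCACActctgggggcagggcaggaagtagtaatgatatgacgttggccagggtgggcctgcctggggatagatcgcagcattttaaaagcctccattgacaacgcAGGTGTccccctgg

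The Gzmb stretch holds 2 RUNX cores and 1 AP-1 site, and the Gzma and Prf1 stretches each hold 1 RUNX core and 1 T-box core. The table holds promoters of 6 of the 10 genes, the others being Cd8a, Nkg7 and Ncr1, and no entry for Cd8b1, Itgae, Klrd1 or Trdc. The Cd8a stretch holds none of these motifs, the Nkg7 stretch 1 RUNX core and each Ncr1 stretch 2 RUNX cores. The RefSeq start site of Gzmb, at 56262334, lies upstream of its GENCODE gene, which ends at 56262260. Of all 32851 promoter stretches of this length, 13.6% hold the RUNX core, 11.5% the T-box core and 6.58% the AP-1 site. These matches describe letters and do not show that a factor binds there.

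DSS against Con asks how the injured colon differs from the uninjured one. Of the 10 genes 3 were raised in DSS, namely Cd8b1, Prf1 and Trdc, and none was lowered. Of all 17658 genes tested 13.9% were raised, and 26.5% were called in either direction. A gene is called where its p, adjusted by the Benjamini-Hochberg method over all tested genes, is under 0.05 in edgeR's quasi-likelihood test. At an unadjusted p under 0.05 there were 5, where 40.6% of all genes were. For 4 genes, namely Gzmb, Prf1, Klrd1 and Trdc, every DSS library stood apart from every Con library, and 41.3% of all genes separated the groups in this way. The fitted difference was above 0 for 9 of the 10 genes and for 48.1% of all genes. The median log2 fold change of the 10 genes was 1.60, and that of all tested genes was -0.03.

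Cd8a and Cd8b1 encode the alpha and beta chains of the CD8 coreceptor, which binds MHC class I together with the T cell receptor. On GRCm38 they lie side by side on the plus strand at chr6:71373427-71379173 (Cd8a, ENSMUSG00000053977) and chr6:71322788-71337494 (Cd8b1, ENSMUSG00000053044). The level of Cd8b1 was 0.672, 1.05 and 1.34 CPM in Con 1 to 3 and 5.77, 10.1 and 1.32 CPM in DSS 1 to 3. DSS 3 lay just below the highest Con library, and the other DSS libraries lay well above all Con libraries. Cd8b1 rose by a log2 fold change of 2.48 ± 0.69 (SE, n = 3 per group), with an edgeR adjusted p of 0.0228. Cd8a stood at 2.43, 2.88 and 3.69 CPM in Con and 12.2, 19.1 and 2.38 CPM in DSS. DSS 2 held the highest and DSS 3 the lowest level of Cd8a of all 12 libraries. Its log2 fold change was 1.90 ± 0.71 (SE) and did not pass the test (edgeR adjusted p = 0.0694). Without DSS 3, the library with pancreas RNA, Cd8a was called as well, with a log2 fold change of 2.38.

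Prf1 (ENSMUSG00000037202, chr10:61297833-61304680) encodes perforin, which forms pores in the membrane of the target cell. Its level was 0.155, 0.166 and 0.588 CPM in Con, from counts of 3, 3 and 11, and 2.60, 1.65 and 0.634 CPM in DSS. The lowest DSS library stood just above the highest Con library. Prf1 rose by a log2 fold change of 2.40 ± 0.69 (SE), with an edgeR adjusted p of 0.0265. Trdc (ENSMUSG00000104876, chr14:54142851-54148868) is the constant region of the T cell receptor delta chain and marks gamma delta T cells, a large share of the intraepithelial lymphocytes of the mouse gut. The level of Trdc was 1.09, 1.05 and 0.321 CPM in Con and 1.83, 6.71 and 3.80 CPM in DSS. All DSS libraries stood above all Con libraries, and Trdc rose by a log2 fold change of 2.32 ± 0.69 (SE; edgeR adjusted p = 0.0300). An exon of Trdc overlaps Gm43434 and Trdv5 on the opposite strand, and the sources used here do not say whether counting used strand, so that reads of these genes may be mixed. Of the stretches of 50 bases in its transcripts 1.61% also occur in other genes.

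**Figure D1:**
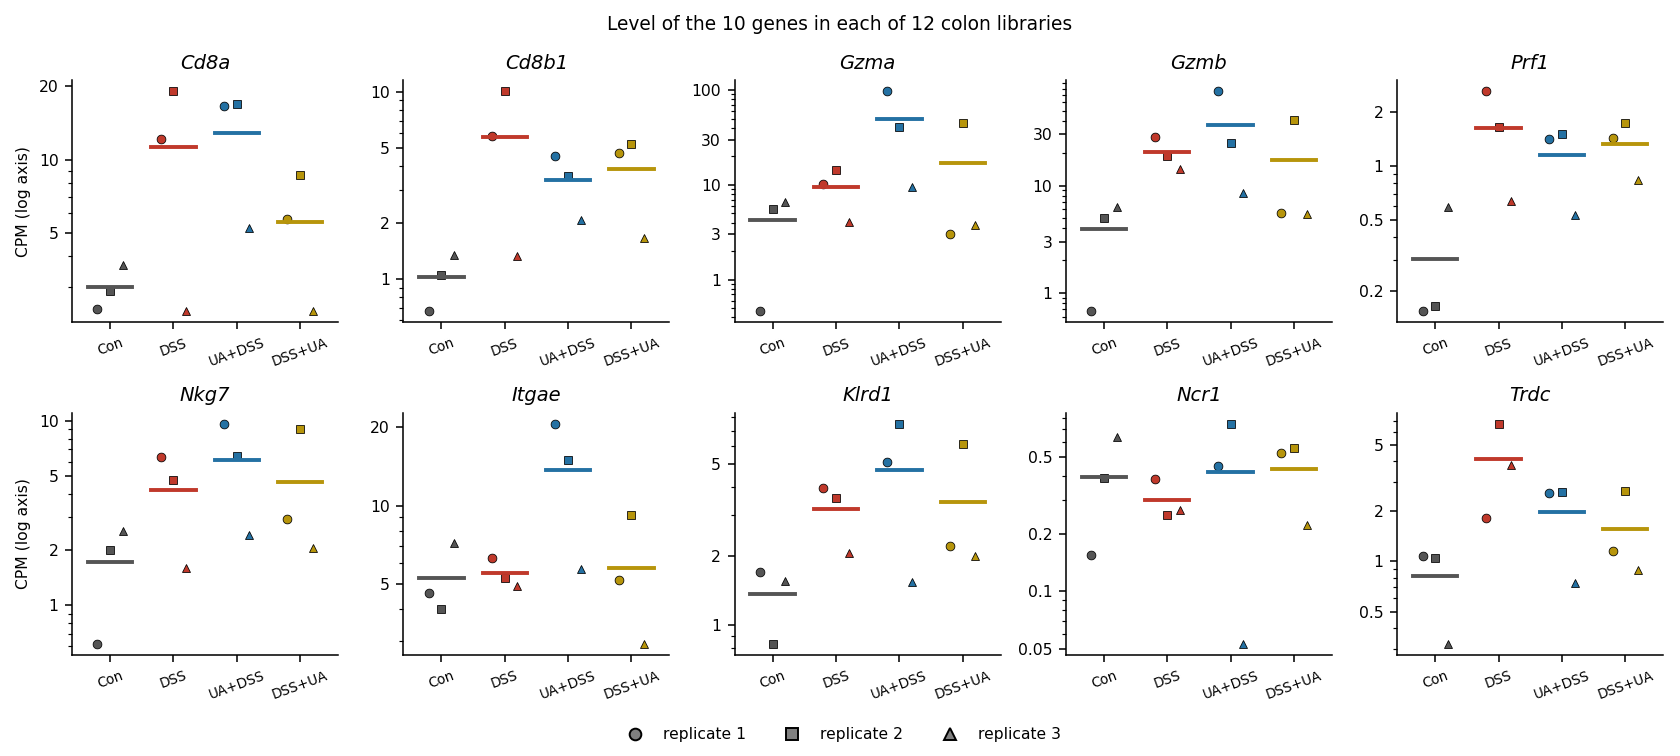
Level of each of the 10 genes in CPM on a log axis (vertical) in the 12 libraries, by group (horizontal). Points are libraries, their shape gives the replicate number and the horizontal lines are group means. Gzma reached 96.9 CPM in UA+DSS 1 and 0.465 CPM in Con 1, and Itgae stayed between 3.99 and 7.17 CPM in Con and DSS.

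The 3 calls rested on few libraries. Without Con 1, Con 2 or DSS 2, the count of called genes went from 3 to 0, and without DSS 3 it was 4. Of all tested genes, these fits called 21.5%, 15.8%, 19.2% and 23.4%. A fit of DSS and Con alone called 0 of the 10 genes and 12.6% of all genes. With the position score as a covariate Cd8b1, Prf1 and Trdc stayed called (edgeR adjusted p = 0.0276, 0.0369 and 0.0349), and 30.5% of all genes were called. DESeq2 called 5 (Cd8a and Gzmb as well) and 32.3% of all genes, and limma-voom called 2 (Prf1 and Trdc) and 26.1% of all genes.

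Of the other granule genes, Gzmb (ENSMUSG00000015437, chr14:56258838-56262260) encodes granzyme B, a protease that triggers death of the target cell. The level of Gzmb was 0.672, 4.94 and 6.31 CPM in Con and 28.2, 18.8 and 14.4 CPM in DSS. The groups did not overlap, but the Con libraries spread 9.38-fold, and the log2 fold change of 2.36 ± 1.03 (SE) did not pass the test (edgeR adjusted p = 0.113). Gzma (ENSMUSG00000023132, chr13:113093825-113100981) encodes granzyme A, a protease of the same granules with another cleavage specificity. Its level was 0.465, 5.60 and 6.63 CPM in Con and 10.2, 14.2 and 4.01 CPM in DSS, so that the groups overlapped (log2 fold change 1.17 ± 1.19 (SE); edgeR adjusted p = 0.487). Nkg7 (ENSMUSG00000004612, chr7:43437073-43438249) encodes a membrane protein of cytotoxic granules, and its level ranged from 0.621 to 2.51 CPM in Con and from 1.58 to 6.35 CPM in DSS (edgeR adjusted p = 0.208).

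Klrd1 (ENSMUSG00000030165, chr6:129591782-129598775) encodes CD94, a partner of the NKG2 receptors on NK cells and CD8 T cells. Its level was 1.71, 0.832 and 1.55 CPM in Con and 3.94, 3.56 and 2.06 CPM in DSS, with no overlap. Its log2 fold change of 1.22 ± 0.61 (SE) did not pass the test (edgeR adjusted p = 0.155). Ncr1 (ENSMUSG00000062524, chr7:4337724-4345164) encodes NKp46, a receptor of NK cells and some innate lymphoid cells, and had the lowest counts of the 10 genes, from 3 to 12 per library in Con and 5 to 8 in DSS. At this depth no difference of Ncr1 was detectable (log2 fold change -0.38 ± 0.76 (SE); edgeR adjusted p = 0.731).

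Itgae (ENSMUSG00000005947, chr11:73090583-73147446) encodes the alpha E integrin CD103, which holds intraepithelial lymphocytes to E-cadherin on epithelial cells and is also found on some dendritic cells. Its level was 4.60, 3.99 and 7.17 CPM in Con and 6.30, 5.26 and 4.91 CPM in DSS. The DSS libraries lay within the range of Con (log2 fold change 0.06 ± 0.48 (SE); edgeR adjusted p = 0.933). Whether the differences of Cd8b1, Prf1 and Trdc differ from that of Itgae was not tested.

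**Figure D2:**
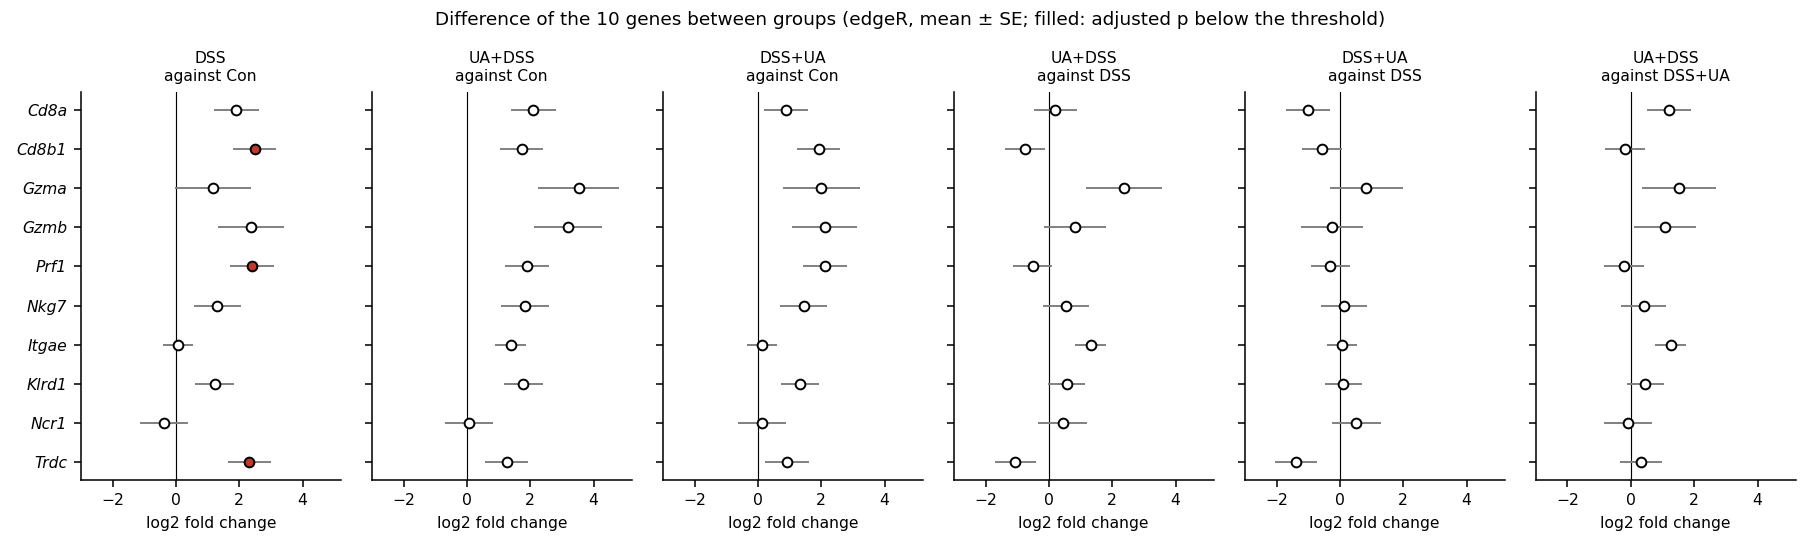
Log2 fold change (horizontal, ± SE) of the 10 genes (vertical) in the 6 comparisons of groups, from 1 edgeR fit of the 12 libraries. Filled points are the 3 genes called in DSS against Con, and open points did not pass the test. The 3 comparisons with Con share its libraries.

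Other genes of T cells and killing moved in DSS against Con as follows. Of 15 genes of the T cell receptor complex 13 were raised (median log2 fold change 2.16), among them Cd247, the zeta chain of the receptor, which went from 1.42 ± 0.0859 (SD) to 7.28 ± 3.20 (SD) CPM (edgeR adjusted p = 0.00666). Of 8 helper and regulatory T cell genes 7 were raised (median 2.72), with Foxp3, the factor of regulatory T cells, at a log2 fold change of 2.87 (edgeR adjusted p = 0.00375). Of 18 genes listed for intraepithelial lymphocytes besides the 10, 7 were raised and 0 lowered (median 0.86). Those with the smallest p were Cd244a, Fcer1g and Cd101, which myeloid cells also express, and the SD of each in DSS was close to its mean (138 ± 132 CPM for Fcer1g). Without DSS 2, the library with the most neutrophil RNA, their log2 fold changes went from 3.75 to 2.59, from 3.65 to 2.50 and from 3.32 to 2.18, and all 3 were still called.

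Of 18 other genes of the cytotoxic machinery, 12 were tested and 6 were raised (median log2 fold change 1.31). Those with the smallest p were Srgn, the proteoglycan of granules, Stx11, a fusion protein of granule release, and Cst7, a cathepsin inhibitor. Srgn and Stx11 are also expressed by neutrophils, and their means of 576 and 76.6 CPM in DSS had SDs of 796 and 108 CPM. Without DSS 2, where neutrophil genes were highest, the log2 fold change went from 4.80 to 2.50 for Srgn and from 5.12 to 2.70 for Stx11, and both were still called. Gzmd, Gzme, Gzmf and Gzmg of this list had a count of 0 in every library, which over 219356839 counts allows up to 0.0137 CPM, counting error only.

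Of 15 NK cell receptor genes 11 were tested and 4 raised (median 1.36). They were led by Fcgr3, Il2rb and Tyrobp, of which Fcgr3 and Tyrobp are also expressed by macrophages and neutrophils. Of 12 factors of the cytotoxic lineage, 11 were tested, 4 were raised and 1 lowered. Runx3, a factor that CD8 T cells require, rose from 2.63 ± 1.31 (SD) to 23.2 ± 8.50 (SD) CPM (edgeR adjusted p = 0.00275), and Tox fell by 1.06 on the log2 scale (edgeR adjusted p = 0.0159). All 5 general leukocyte genes were raised and 3 of 10 epithelial genes were lowered, and Epcam fell by 0.93 on the log2 scale (edgeR adjusted p = 0.0234). The part of these shifts in the results on the 10 genes was not tested.

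UA+DSS against DSS asks whether early UA changed the injured colon. Of the 10 genes 0 were called by edgeR, where 18.7% of all tested genes were. At an unadjusted p under 0.05 there was 1, Itgae, which DESeq2 also called, where 34.6% of all genes were, and limma-voom called 0. No gene of the 10 separated the groups, where 42.8% of all genes did. The median log2 fold change of the 10 genes was 0.49 and that of all genes was -0.02. In the same comparison 5 of 5 leukocyte genes, 8 of 8 neutrophil genes and 5 of 8 helper and regulatory T cell genes were lowered, and 1 of 15 genes of the T cell receptor complex was.

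Itgae stood at 20.7, 14.9 and 5.69 CPM in UA+DSS 1 to 3, against 4.91 to 6.30 CPM in DSS. UA+DSS 1 and 2 lay above every other library, and UA+DSS 3 lay within the DSS range. The log2 fold change was 1.32 ± 0.49 (SE), with an edgeR adjusted p of 0.0789. Without UA+DSS 3 it was 1.69, and Itgae was called.

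The granzymes reached their highest levels in UA+DSS. Gzma stood at 96.9, 40.3 and 9.52 CPM in UA+DSS 1 to 3, against 4.01 to 14.2 CPM in DSS. The libraries of UA+DSS spread 10.2-fold, and the log2 fold change of 2.36 ± 1.20 (SE) did not pass the test (edgeR adjusted p = 0.191). With the position score as a covariate it was -0.34. Gzmb stood at 75.8, 24.7 and 8.56 CPM in UA+DSS (log2 fold change 0.83 ± 0.97 (SE); edgeR adjusted p = 0.593), and without UA+DSS 1 its log2 fold change was -0.30.

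Cd8a stood at 16.6, 16.9 and 5.21 CPM in UA+DSS and Cd8b1 at 4.55, 3.56 and 2.07 CPM. Their log2 fold changes against DSS were 0.20 ± 0.68 and -0.75 ± 0.64 (SE). Trdc stood at 2.57, 2.62 and 0.744 CPM, with a log2 fold change of -1.06 ± 0.65 (SE; edgeR adjusted p = 0.277). The other genes, Prf1, Nkg7, Klrd1 and Ncr1, had log2 fold changes from -0.51 to 0.56. UA+DSS 3 held the lowest level within its group for all 10 genes.

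Among the partners on the epithelium, Btnl1, a butyrophilin-like protein that sustains gamma delta intraepithelial lymphocytes in the mouse, rose from 8.94 ± 7.18 (SD) CPM in DSS to 98.9 ± 32.2 (SD) CPM in UA+DSS (edgeR adjusted p = 0.0466). Of 17 genes of this list 2 were raised, the other being Epcam. The call of Btnl1 was lost in 12 of 21 alternative settings, among them the omission of any 1 DSS or UA+DSS library, and that of Epcam in 10 of 21. In the same comparison 5 of 6 Hox genes of the proximal colon were raised and 2 of 5 of the distal colon were lowered. With the position score as a covariate the log2 fold change of Btnl1 went from 3.47 to 1.64 and was not called (edgeR adjusted p = 0.482).

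UA+DSS against Con compares colitis under early UA with the uninjured colon. Of the 10 genes 0 were called by edgeR, where 0.00566% of all tested genes, a single gene, was. At an unadjusted p under 0.05 there were 8 of the 10 genes, all higher in UA+DSS, where 12.1% of all genes were under that value in either direction. DESeq2 called 1, Gzmb, and limma-voom called 0. Cd8a, Cd8b1, Gzma and Gzmb did not overlap between the groups, where 20.6% of all genes did not. The fitted difference was above 0 for all 10 genes and for 49.4% of all tested genes. The median log2 fold change of the 10 genes was 1.81, and that of all genes was -0.01.

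The granzymes differed most in this comparison, with log2 fold changes of 3.53 ± 1.27 (SE) for Gzma and 3.19 ± 1.07 (SE) for Gzmb (edgeR adjusted p = 0.338 and 0.319, n = 3 per group). Cd8a followed with 2.10 ± 0.71 (SE), Prf1 with 1.89, Nkg7 with 1.84, Klrd1 with 1.78, Cd8b1 with 1.73, Itgae with 1.39 and Trdc with 1.26, and Ncr1 had 0.06. Leaving out 1 library at a time gave 2.56 to 4.02 for Gzma and 2.07 to 3.69 for Gzmb, and each time 0 of the 10 genes were called. Of all tested genes these fits called from 0% to 0.0219%. With the position score as a covariate, 0 of the 10 genes and 0% of all genes were called, so these counts do not set the 10 genes apart.

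DSS+UA against DSS asks whether late UA changed the injured colon. Of the 10 genes 0 were called by edgeR, where 7.54% of all tested genes were, and 0 had an unadjusted p under 0.05, where 29.9% of all genes had one. DESeq2 and limma-voom each called 0. No gene of the 10 separated the groups, where 34.7% of all genes did. The median log2 fold change of the 10 genes was -0.09 and that of all genes was 0.02. Trdc had the largest difference, with 1.16, 2.66 and 0.887 CPM in DSS+UA and a log2 fold change of -1.39 ± 0.66 (SE; edgeR adjusted p = 0.182). Cd8a came next, with 5.69, 8.60 and 2.38 CPM in DSS+UA and a log2 fold change of -1.01 ± 0.69 (SE; edgeR adjusted p = 0.347).

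The library DSS+UA 2 held the highest level within its group for all 10 genes, and stood furthest apart for the granzymes. Gzma stood at 3.0, 44.4 and 3.77 CPM in DSS+UA 1 to 3. Gzmb stood at 5.53, 40.5 and 5.43 CPM. Nkg7 followed with 2.95, 8.97 and 2.05 CPM. For Gzma the log2 fold change against DSS was 0.84, and without DSS+UA 2 it was -1.53. In the same library the mast cell proteases Mcpt1 and Mcpt2, chosen after their values were seen, stood at 57.8 and 42.1 CPM, against at most 4.58 and 3.99 CPM in DSS+UA 1 and 3. The summed level of the whole list of 10 mast cell genes was 69.4, 145 and 66.0 CPM in DSS+UA 1 to 3, and that of the 8 others was 61.5, 45.7 and 58.8 CPM, lowest in DSS+UA 2. Their part in the levels of the granzymes was not tested. Prf1 was also highest in DSS+UA 2 but spread less, with 1.42, 1.73 and 0.832 CPM.

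DSS+UA against Con compares colitis under late UA with the uninjured colon. Of the 10 genes 0 were called by edgeR, where 18.1% of all tested genes were, and 2 had an unadjusted p under 0.05, where 36.0% of all genes had one. The fitted difference was above 0 for all 10 genes and for 48.5% of all genes. DESeq2 called these 2, Cd8b1 and Prf1, and limma-voom called 0. Cd8b1 stood at 4.69, 5.26 and 1.66 CPM in DSS+UA, all above the highest Con library at 1.34 CPM (log2 fold change 1.92 ± 0.68 (SE); edgeR adjusted p = 0.0701). Prf1 had a log2 fold change of 2.10 ± 0.69 (SE; edgeR adjusted p = 0.0558) with no overlap. Klrd1 was the third gene without overlap (1.33 ± 0.61 (SE); edgeR adjusted p = 0.143), and 38.9% of all genes did not overlap. Without DSS 3, a library outside this comparison that shares its estimate of the spread, 2 of the 10 genes were called (Cd8b1 and Prf1). Without Con 3 or DSS 2 there was 1 call, of Prf1 and of Cd8b1 respectively. Of all tested genes, 17.3% were called without DSS 3, 8.58% without Con 3 and 22.4% without DSS 2.

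UA+DSS against DSS+UA compares the times of UA. Of the 10 genes 0 were called by edgeR, where 16.8% of all tested genes were, and 1, Itgae, had an unadjusted p under 0.05, where 33.8% of all genes had one. DESeq2 called Itgae and limma-voom called 0. No gene of the 10 separated the groups, where 45.3% of all genes did. Itgae was higher in UA+DSS by a log2 fold change of 1.25 ± 0.49 (SE; edgeR adjusted p = 0.0963), and was called without UA+DSS 3. Of 18 other genes listed for intraepithelial lymphocytes 4 were higher in UA+DSS. Those with the smallest p were Tmigd1 (log2 fold change 4.63), Sox13 (0.74) and Tcrg-C2 (2.26), with edgeR adjusted p of 0.0321, 0.0375 and 0.0458. Tmigd1 is expressed by epithelial cells and does not mark lymphocytes. Tcrg-C2, a constant region of the gamma chain, stood at 6.33 ± 3.73 (SD) against 1.33 ± 1.27 (SD) CPM. With the position score as a covariate none of the 3 was called, and the sign turned for Tmigd1 and Sox13. The call of Tcrg-C2 was lost in 11 of 20 alternative settings. Since the position genes also differed (6 of 6 proximal Hox genes higher in UA+DSS), treatment and position cannot be told apart here.

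Over the 4 groups together, 0 of the 10 genes were called by edgeR, where 35.0% of all tested genes were. At an unadjusted p under 0.05 there were 5, namely Cd8a, Cd8b1, Prf1, Itgae and Trdc, where 50.1% of all genes were. DESeq2 called 6 and limma-voom 0. Without DSS 3 edgeR called 3, without DSS+UA 2 it called 2, and without Con 3 or UA+DSS 3 it called 1. The shares of all genes called in these alternative settings are not given here, so these counts cannot be set against them.

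A ratio of 2 genes within a library does not depend on how the library is scaled. The count ratio of Cd8b1 to Cd8a, beta to alpha chain, was 0.284, 0.371 and 0.367 in Con 1 to 3. It was 0.475, 0.528 and 0.560 in DSS, from 201 counts of Cd8b1 and 381 of Cd8a in DSS 2. It was 0.277, 0.212 and 0.401 in UA+DSS and 0.825, 0.613 and 0.701 in DSS+UA. The 3 DSS+UA libraries were above the 9 others, the DSS libraries came next, and Con and UA+DSS lay below them and overlapped.

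The ratio differed among the 4 groups in an exact permutation test of the log2 ratio over all 369600 arrangements (two-sided, p = 0.00188; 0.00753 adjusted by Benjamini-Hochberg over the 4 ratios computed). The smallest p this test can give is 6.49e-05. Leaving out each library in turn gave adjusted p from 0.000779 to 0.0288. Pairs of groups were not tested, since 3 libraries against 3 cannot give an exact permutation p below 0.1. The exact 95% interval from counting error was 0.137 to 0.520 in Con 1, from 13 counts of Cd8b1, and 0.155 to 0.281 in UA+DSS 2. Of the stretches of 50 bases in Cd8b1 transcripts 6.00% also occur in other genes, and none of those of Cd8a do.

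The position scores are set beside the ratio here, and their part in it was not tested. Between the UA groups the ratio was higher in DSS+UA, with its distal scores, than in UA+DSS, with its proximal scores. In Con, library 1 had a distal score of 5.52 and a ratio of 0.284, below the 0.371 and 0.367 of Con 2 and Con 3, whose scores were -3.02 and -1.83. In DSS 1 to 3 the scores were 3.10, 1.35 and 0.366, and the ratios were 0.475, 0.528 and 0.560. Xcr1 and Clec9a, which define the dendritic cells that can carry the alpha chain without the beta chain, were chosen after their values were seen. Xcr1 stood at 1.14 to 2.33 CPM in Con, 0.423 to 0.962 in DSS, 0.638 to 2.12 in UA+DSS and 0.388 to 1.86 in DSS+UA. Clec9a stood at 1.34 to 1.71 CPM in Con, 0.740 to 1.88 in DSS, 0.691 to 2.50 in UA+DSS and 0.632 to 1.86 in DSS+UA. The summed level of all 8 genes of the list of these cells was 159 to 184 CPM in Con, 169 to 238 in DSS, 157 to 258 in UA+DSS and 170 to 219 in DSS+UA, and none was at 0. Their part in the ratio was not tested.

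**Figure D3:**
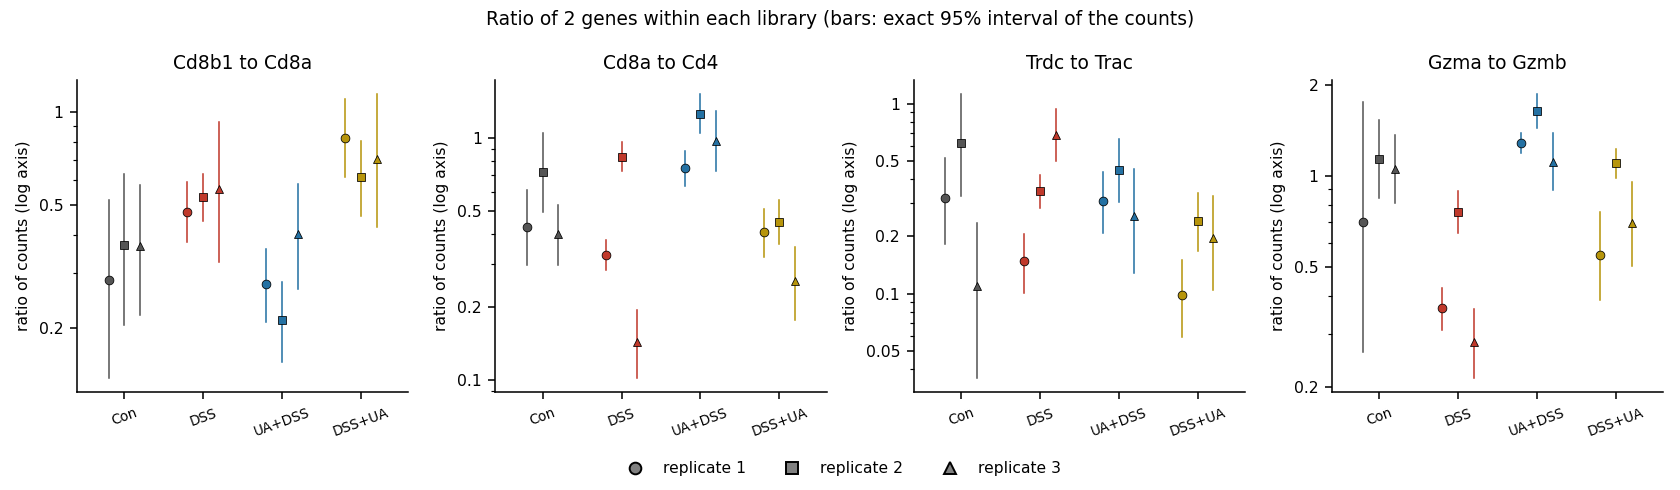
Ratio of counts (vertical, log axis) of Cd8b1 to Cd8a, Cd8a to Cd4, Trdc to Trac and Gzma to Gzmb in each library, by group (horizontal). Points are libraries, bars are exact 95% intervals that cover counting error only, and the shape gives the replicate number. The Cd8b1 to Cd8a ratios of DSS+UA, 0.613 to 0.825, lie above those of all other libraries.

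The ratio of Gzma to Gzmb was 0.704, 1.13 and 1.05 in Con and 0.364, 0.758 and 0.281 in DSS. It was 1.28, 1.63 and 1.11 in UA+DSS and 0.545, 1.10 and 0.695 in DSS+UA. All UA+DSS libraries stood above all DSS libraries, but the difference among the 4 groups did not pass after adjustment (exact permutation p = 0.0317, adjusted 0.0634). Without DSS 2 the adjusted p of the exact permutation test was 0.00675, and without DSS+UA 2 it was 0.0408.

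Cd4 marks helper T cells and also some macrophages of the gut. The ratio of Cd8a to Cd4 was 0.430, 0.724 and 0.401 in Con and 0.329, 0.836 and 0.143 in DSS. It was 0.750, 1.26 and 0.970 in UA+DSS and 0.407, 0.451 and 0.255 in DSS+UA. The UA+DSS libraries were the highest apart from DSS 2 (exact permutation p = 0.125, adjusted 0.166), and without DSS 2 the adjusted p was 0.00675. Trac is the constant region of the alpha chain of the T cell receptor and marks alpha beta T cells. The ratio of Trdc to Trac ranged from 0.109 to 0.619 in Con, 0.148 to 0.687 in DSS, 0.257 to 0.450 in UA+DSS and 0.0985 to 0.242 in DSS+UA. Only UA+DSS and DSS+UA did not overlap, and the difference among the groups did not pass the test (exact permutation p = 0.548, adjusted 0.548).

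Across the 12 libraries the 10 genes formed closer and looser sets. Pearson's r of log2 CPM was 0.929 between Gzma and Nkg7, 0.928 between Gzma and Gzmb and 0.905 between Cd8b1 and Prf1. Gzma and Prf1, both granule genes, had an r of 0.639. Ncr1 and Trdc were the least like the others, with a median r of 0.426 and 0.492 with the other 9 genes and of 0.0880 with each other. These values describe 12 libraries in 4 groups, which share treatment, tissue position and depth, and in low counts such as those of Ncr1 a weak correlation is no finding.

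**Figure D4:**
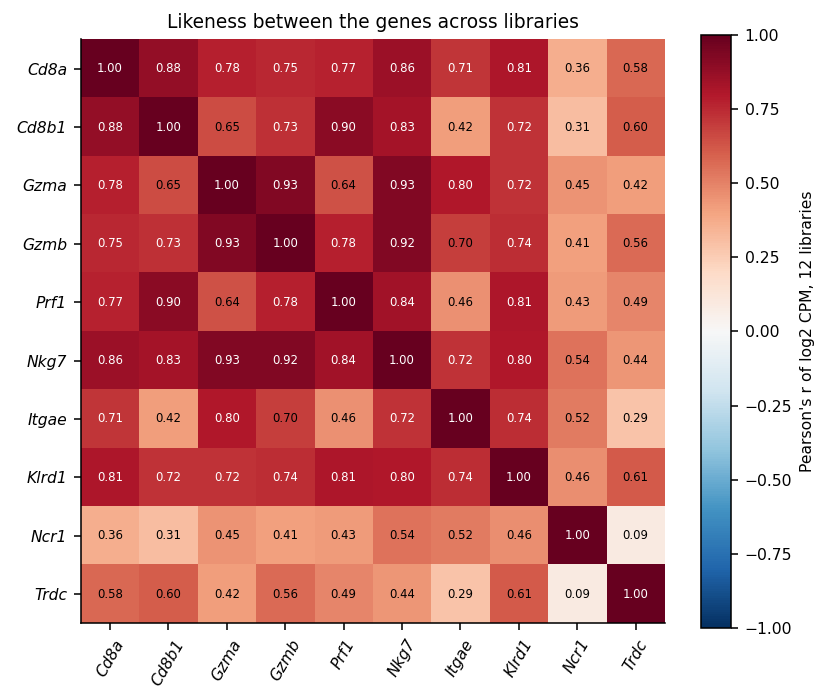
Pearson's r of log2 CPM over the 12 libraries for each pair of the 10 genes (both axes), with color from -1 to 1. Gzma, Gzmb and Nkg7 form a block with values from 0.925 to 0.929, and apart from the diagonal the row of Ncr1 does not exceed 0.543.

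Likeness was sought in 15156 genes outside the 10 with a mean log2 CPM not below 0. Those most like the mean profile of the 10 genes were Ctsw (r = 0.960), Cd3g (0.959) and Ccl5 (0.926). Ctsw encodes cathepsin W of cytotoxic cells, Cd3g a chain of the T cell receptor complex and Ccl5 a chemokine made by T cells. The genes most like Cd8b1 were Trbc1 (0.966), Cd3e (0.962) and Lck (0.960), all of the T cell receptor and its signaling. The gene most like Cd8a was Ccl5 (0.967), and the gene most like Klrd1 was Cd7 (0.937), found on T and NK cells. Outside the 10 genes, Gzma was most like Dnajb9 (0.911), a chaperone of the endoplasmic reticulum, and Gzmb was most like Eif4e3 (0.952). Neither is a lymphocyte marker. Gzma was more like Nkg7 (0.929) and Gzmb (0.928), which are among the 10. Outside the 10, Art2a-ps (0.898) and Tlr12 (0.891) came next for Gzma, and Il12rb1 (0.922) and Ighv9-3 (0.920) for Gzmb. Prf1 was most like Cd3d (0.927), Zap70 (0.926) and Il2rb (0.920), and Nkg7 was most like Ctsw (0.932), Cd160 (0.930) and Tlr12 (0.929). Trdc was most like Klk8 (0.882), Adm (0.871) and Rtn4 (0.857), none of which is on a lymphocyte list used here.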

How the data were processed

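RNA of 12 colon samples was sequenced by the authors, who mapped the reads to GRCm38 and counted them per gene, naming HISAT2 for the counts. The deposited values are raw counts per Ensembl gene, in 1 file a library. Versions, annotation release and use of strand in counting are not stated. FastQC and Cuffdiff are also in the submitters' processing notes. For RNA extraction the labels name Trizol and the methods the RNeasy kit. The labels do not say whether the 3 libraries of a group come from separate animals, so p-values measure only the spread between these samples, which may be technical.

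Genes were named from GENCODE vM21, 3 of them through RefSeq synonyms. Low counts were removed with filterByExpr, which left 17658 genes holding 99.8% of all counts. All 12 libraries entered 1 robust quasi-likelihood fit with TMM factors (edgeR 4.0.16, R 4.3.3), with a biological coefficient of variation of 0.352, and p-values were adjusted over all tested genes by the Benjamini-Hochberg method. The SE of a log2 fold change is its size over the root of its F value. The fit was tested on simulated data with known changes. Ratios had 0.5 added to each count and were tested by exact permutation. Intervals are Clopper-Pearson at 95%, for counting error alone. Likeness is Pearson's r over log2 CPM values (prior count 2). The text names the 10 genes, at most 3 called genes of smallest p per list, reference genes and the most alike genes. Genes outside this rule are marked where they appear. The 10 genes, the lists (written from general knowledge) and the position score were chosen with earlier results of these data known.

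Alternatives were DESeq2 1.42.0 and limma-voom (limma 3.58.1), scaling by library size or by upper quartile, another filter (none, or a minimum of 10 counts per sample), fitting each pair of groups alone, a replicate block, the position score as covariate, omission of each library, other added counts in ratios and a prior count of 0.5.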

Additional observations from a re-analysis of the deposited data

How the results depend on the processing

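The depth limits what Prf1 and Ncr1 can show, with counts down to 3 and 1, and 3 libraries a group limit the rest. DESeq2 called more of the 10 genes than edgeR, with 5 in DSS against Con, 1 in UA+DSS against DSS, 1 in UA+DSS against Con, 2 in DSS+UA against Con, 1 in UA+DSS against DSS+UA and 6 among the 4 groups. DESeq2 also called more of all tested genes in these comparisons of 2 groups, with 32.3%, 25.5%, 2.12%, 26.4% and 24.6%. For the 4 groups together the DESeq2 share of all genes is not given here. In DSS against Con, 1 gene was called with at least 10 counts in every sample, a filter that removes Gzma, Prf1, Ncr1 and Trdc. This fit called 28.5% of all the genes it tested. In the fit of the 2 groups alone, which has fewer samples, 0 of the 10 genes and 12.6% of all genes were called. Apart from the genes that the filter removes, the cause of these changes was not tested.

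Deviations from the group means were weakly correlated between same-numbered libraries of different groups (-0.216 to 0.187, median 0.0412, 18 pairs). Between differently numbered ones the correlations were -0.289 to 0.240 (median -0.0228, 36 pairs). These values also carry differences in tissue position and content, so they cannot decide whether the numbers pair the samples. With the replicate block 2 of the marker genes were called in DSS against Con, where 24.8% of all tested genes were. Among the 4 groups 1 marker gene was called, and the share of all genes is not given here. The count of called marker genes changed in no other comparison. Under the block the log2 fold change of Itgae was -0.015 in DSS against Con and -0.012 in DSS+UA against Con, and that of Ncr1 was -0.12 in UA+DSS against Con.

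With the position score as a covariate, the log2 fold change in UA+DSS against DSS was -0.14 for Cd8a, -0.34 for Gzma, -1.24 for Gzmb, -0.65 for Nkg7 and -1.02 for Ncr1, against 0.20, 2.36, 0.83, 0.53 and 0.44 without it. In UA+DSS against DSS+UA it was -2.16 for Gzma, -1.71 for Gzmb, -1.17 for Nkg7, -1.38 for Tmigd1, -0.085 for Sox13 and -1.45 for H2-T3, against 1.52, 1.09, 0.40, 4.63, 0.74 and 5.85 without the covariate. In DSS+UA against DSS it was 0.47 for Gzmb and -0.046 for Klrd1, and for Ncr1 it was 0.10 in DSS against Con and -0.92 in UA+DSS against Con. In DSS+UA against DSS, limma-voom gave -0.16 for Gzma, -0.092 for Itgae and -0.061 for Klrd1. For Ncr1 limma-voom gave -0.10 in UA+DSS against DSS and -0.30 in UA+DSS against Con. Scaling by library size alone, which moved the median of all genes in DSS+UA against DSS by -0.13, gave -0.073 for Nkg7, -0.10 for Itgae and -0.085 for Klrd1 there. The edgeR values in DSS+UA against DSS were 0.84 for Gzma, -0.26 for Gzmb, 0.13 for Nkg7, 0.07 for Itgae and 0.11 for Klrd1, those of Itgae in DSS against Con and DSS+UA against Con were 0.06 and 0.13, and those of Ncr1 in DSS against Con and UA+DSS against Con were -0.38 and 0.06.

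Leaving out 1 library at a time, the count of called genes ran from 0 to 4 in DSS against Con and 0 to 2 in DSS+UA against Con. It ran from 0 to 1 in UA+DSS against DSS and in UA+DSS against DSS+UA, and 0 to 3 among the 4 groups. The shares of all tested genes ran from 15.8% to 25.7% in DSS against Con and 5.81% to 22.4% in DSS+UA against Con. They ran from 1.0% to 22.7% in UA+DSS against DSS and 3.07% to 21.5% in UA+DSS against DSS+UA. The calls in the latter 2 came without UA+DSS 3, where 7.59% and 9.04% of all genes were called. For the 4 groups together the share is not given here. The adjusted p of the exact permutation test ran from 0.00675 to 0.398 for the ratio of Cd8a to Cd4 and from 0.00675 to 0.157 for that of Gzma to Gzmb. The log2 fold changes that changed sign were as follows. In DSS against Con they ran from -0.097 to 0.34 for Itgae and from -0.77 to 0.14 for Ncr1. In UA+DSS against DSS they ran from -0.28 to 0.82 for Cd8a, -0.30 to 1.29 for Gzmb and -0.30 to 0.98 for Ncr1. In DSS+UA against DSS they ran from -1.02 to 0.14 for Cd8b1, -1.53 to 1.35 for Gzma, -1.94 to 0.18 for Gzmb, -0.48 to 0.40 for Itgae, -0.64 to 0.40 for Klrd1, -0.80 to 0.56 for Nkg7 and -0.66 to 0.22 for Prf1. In UA+DSS against Con they ran from -0.68 to 0.60 for Ncr1. In DSS+UA against Con they ran from -0.31 to 2.53 for Gzma, -0.36 to 0.47 for Itgae and -0.24 to 0.68 for Ncr1. In UA+DSS against DSS+UA they ran from -0.57 to 0.072 for Cd8b1, -0.045 to 2.70 for Gzmb, -0.048 to 1.14 for Klrd1, -0.82 to 0.45 for Ncr1, -0.078 to 1.27 for Nkg7 and -0.48 to 0.12 for Prf1.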
